A study of Homo sapiens with 16 samples.

Results

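The 8 MOLM13 libraries of the series, out of 16 libraries in all, were compared by culture pair: pairs 3 and 4 against pairs 1 and 2, with the treatment as a covariate. The study treated 2 human myeloid leukemia lines, MOLM13 (acute myeloid leukemia with an MLL-AF9 fusion) and K562 (chronic myeloid leukemia in blast crisis with a BCR-ABL fusion), with Ro 08-2750 (Ro), a small molecule that binds the RNA-binding protein MSI2, and sequenced the 3′ ends of mRNAs. Each line had 4 DMSO libraries and 4 Ro libraries, numbered 1 to 4 in the labels, so that every number gave a DMSO library and a Ro library. The grouping of pairs was chosen by the levels of genes in these same libraries, so the differences between pairs are given as values without a test. Each pair of numbers was treated as 1 culture, although the labels do not say what same-numbered libraries shared (a day, a flask or a preparation).

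All 8 MOLM13 libraries came from 1 unmodified line, plated at the same density and kept between passages 8 and 12, and harvested after 4 h. The 4 Ro libraries had 20 μM Ro and the 4 DMSO libraries had the vehicle at 0.1%. A passage was not given for each pair, and no date, lane or operator was given, so passage, handling and sequencing cannot be told apart as sources of a difference between pairs. A line of 1 origin also limits the model: the pairs repeat a culture and are not separate patients.

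Cultured leukemia cells share their genome but not their surroundings. Amino acid supply, sterol supply, cell density and temperature are read by dedicated transcription programs. When amino acids run short or the endoplasmic reticulum is loaded, translation is slowed through eIF2α and the factor ATF4 raises genes of amino acid uptake, amino acid synthesis and tRNA charging. SREBP2 raises cholesterol synthesis when membrane sterol is low, HSF1 raises chaperones when proteins misfold, and NRF2 raises antioxidant genes, among them HMOX1, when electrophiles or oxidants modify its inhibitor KEAP1. Myeloid granule genes such as MPO and CTSG mark promyelocytic cells in normal marrow.

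Levels are given as CPM, a gene's counts relative to the total of its library after scaling by edgeR's TMM factors, and values of a pair are listed with DMSO first and Ro second. Total counts in pairs 1 to 4 were 8611944, 24935944, 22462211 and 39978791 with DMSO, and 14412389, 16492782, 21413885 and 21357298 with Ro. The Ro libraries of pairs 3 and 4 thus had nearly equal totals, although 15351 and 14752 genes reached 10 counts in them. A gene needs about 3 counts to be told from 0, which was 0.348 CPM in the smallest MOLM13 library and 0.0750 CPM in the deepest, a limit that covers counting error only. Of 25221 genes in the table, 15031 reached a minimum of 10 counts in 4 or more libraries of MOLM13; 320 genes reached that minimum in exactly 4 libraries and 304 missed it with 3. The filter kept 27 genes that reached it in pairs 3 and 4 alone and 0 that reached it in pairs 1 and 2 alone. The line label held against marker genes: the 12 myeloid markers summed to between 802 and 1248 CPM in MOLM13, against 62.7 to 161 CPM in K562, and 15 erythroid markers to between 6.85 and 10.8 CPM, against 2236 to 4188 CPM. FUT4 was at 0 in every library. The T cell, B cell, epithelial and fibroblast marker sums in MOLM13 were at most 1.24, 64.3, 48.6 and 2.76 CPM.

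The pair number, and not the treatment, held most of the variation among the MOLM13 libraries. Differences between pairs made up 76.2% of the variation in log2 CPM over the tested genes, Ro against DMSO 8.50%, and the remainder 15.3%. The contrast of pairs 3 and 4 with pairs 1 and 2 held 34.3% of the whole, that of pair 4 with pair 3 held 26.8%, and that of pair 2 with pair 1 held 15.2%. Divided another way, pair 4 against the other 3 pairs held 50.01%, which was 65.6% of all variation between pairs, and pair 3 against pairs 1 and 2 held 11.1%. Pair 4 therefore carried more of the variation between cultures than the grouping of pairs 3 and 4 did.

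**Figure D1:**
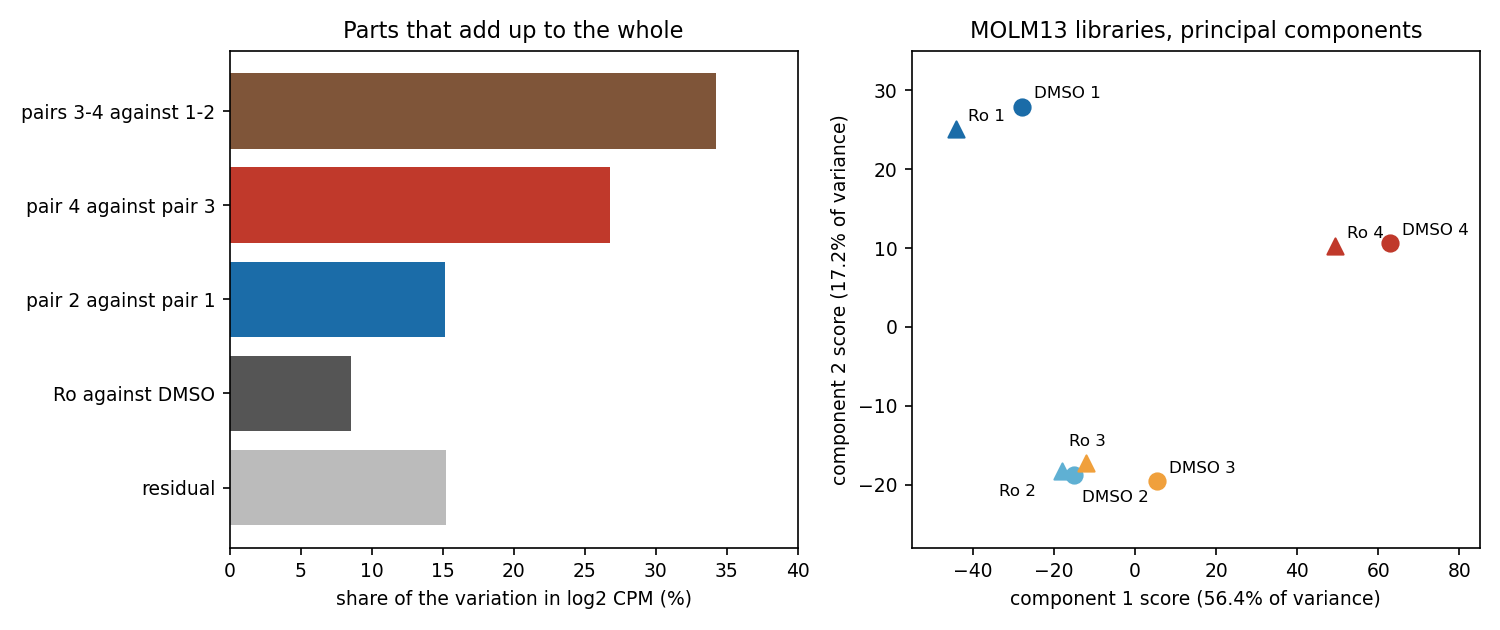
Left, share of the variation in log2 CPM among the 8 MOLM13 libraries (%, bars) held by 5 parts that add up to the whole; right, scores of the libraries on the first and second principal components (circles DMSO, triangles Ro, one colour per pair). Ro against DMSO holds 8.50%, pair 4 lies alone at 62.8 (DMSO) and 49.3 (Ro) on component 1, and pair 3 lies beside pair 2 on component 2.

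Pair 3 lay closer to pair 2 than to pair 4. The root mean square of the log2 differences over the 15031 genes was 0.288 between the DMSO libraries of pairs 2 and 3 and 0.250 between their Ro libraries. Between pairs 3 and 4 it was 0.528 with DMSO and 0.522 with Ro, and between pairs 1 and 4 it was 0.712 and 0.723. Within a pair, Ro and DMSO libraries differed by 0.259 to 0.373. Libraries of pairs 2 and 3 with the same treatment were thus about as alike as the Ro and DMSO libraries of a single pair. On the first principal component, with 56.4% of the variance, pair 1 stood at -27.99 and -44.2 and pair 4 at 62.8 and 49.3, with pairs 2 and 3 between them. Pair 3 (5.33 and -12.2) lay nearer there to pair 2 (-15.0 and -18.0) than to pair 4. The second component, with 17.2%, set pair 1 (27.9 and 25.1) and pair 4 (10.6 and 10.3) against pairs 2 and 3. That division is not the grouping of pairs 3 and 4 against pairs 1 and 2.

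Counting genes gave the same picture. The 4 libraries of pairs 3 and 4 were all above the 4 libraries of pairs 1 and 2 for 1056 genes (7.03% of those tested) and all below for 1176 genes (7.82%). Of these 2232 genes, 1672 (74.9%) also had both pair 4 libraries outside all 6 other libraries. Pair 4 alone was above the other 6 for 4033 genes (26.8%) and below them for 3657 (24.3%). As a description of the same fit, edgeR with treatment as the covariate called 0 genes (0.0%) between pairs 3 and 4 and pairs 1 and 2 at an adjusted p of 0.05, with 4411 (29.3%) under an unadjusted 0.05; limma-voom called 0 and DESeq2 called 1495. Without the Ro library of pair 3, edgeR called 2484, and without both libraries of pair 3 it called 6270. With a term for every pair, in which the spread is that between the 2 libraries of a pair and not between cultures, 3912 genes (26.0%) were called higher and 3349 (22.3%) lower. With the counts summed over each pair, so that a culture enters once, edgeR called 0, with 1521 under an unadjusted 0.05. The biological coefficient of variation was 0.207 in the first fit and 0.0814 in the second. For pair 4 against the mean of pairs 1 to 3, the second fit called 4609 genes (30.7%) higher and 4283 (28.5%) lower. For pair 3 against pairs 1 and 2 it called 1118 (7.44%) and 777 (5.17%), and for pair 2 against pair 1 it called 1204 (8.01%) and 662 (4.40%). These counts rest on the contrast that the grouping used, and nothing is read from them about replication in further cultures.

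A change of at least 1 on the log2 scale between pairs 3 and 4 and pairs 1 and 2 was found for 275 genes higher (1.83%) and 175 lower (1.16%), 450 in all, of which 208 had no overlap of libraries. Sorted by what each pair did, 58 of the 450 (12.9%) differed from the mean of pairs 1 and 2 by at least 1 in both pair 3 and pair 4. In each of the 58, pairs 3 and 4 went the same way, 37 upward and 21 downward. Pair 1 alone can shift that mean, so the 58 include genes whose pair 3 was near pair 2, such as SCD. In 171 (38.0%) pair 4 differed by at least 1 and pair 3 stayed within 0.5, 136 upward and 35 downward. The other 221 (49.1%) met the rule of no class. They include genes such as HERC5, at 0.95 in pair 3 and 1.21 in pair 4. None differed by at least 1 in pair 3 with pair 4 within 0.5. As a description that the choice of the grouping from these same values already favours, over the 15031 genes the difference of pair 3 from pair 2 and that of pair 4 from pair 1, which share no library, had a Pearson's r of 0.377 and a Spearman's rho of 0.433. The other pairing, pair 3 minus pair 1 and pair 4 minus pair 2, gave 0.275 and 0.359. Both were computed across genes, which are no replicates of a culture and have span, base composition and depth in common.

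Large differences of single genes were alike in direction in DMSO and in Ro libraries. Of 254 genes with a mean of at least 5 CPM that differed by at least 1 between pairs 3 and 4 and pairs 1 and 2 in the DMSO libraries alone, 254 differed in the same direction in the Ro libraries, with a median of 1.14 on the log2 scale in DMSO and 0.938 in Ro, and 99 also passed 1 there. Of 644 such genes between pairs 4 and 3 in DMSO, 638 (99.1%) kept their direction in Ro. DMSO and Ro libraries of a pair share their culture number, so this shows the same difference measured in separate libraries and not in separate cultures.

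Few genes differed from the mean of pairs 1 and 2 by 1 or more in both pair 3 and pair 4. SCD and DHCR7 of lipid synthesis were among them, each with its lowest levels in pair 1. SCD, the desaturase that makes monounsaturated fatty acids, stood at 93.1 and 82.3 CPM in pair 1, 391 and 415 in pair 2, 489.5 and 452 in pair 3, and 897 and 885 in pair 4. Pairs 2 and 3 were close together, pair 4 lay above them, and pair 1 lay below pair 2 by 2.20 on the log2 scale (SE 0.10). DHCR7, the last enzyme of cholesterol synthesis, stood at 5.51 and 3.43 CPM in pair 1, 10.3 and 11.3 in pair 2, 14.5 and 13.4 in pair 3, and 17.7 and 18.1 in pair 4. Its differences from pairs 1 and 2 were of like size in both later pairs, 1.03 (SE 0.14) in pair 3 and 1.39 in pair 4. VIM, the intermediate filament protein vimentin, was named after its values were seen. Pair 4 did not carry it alone, with 42.5 and 32.1 CPM in pair 1, 102 and 85.5 in pair 2, 170 and 138 in pair 3, and 134 and 108 in pair 4. Its pair 3 libraries were the highest of all. FGF16, a secreted growth factor, stood at 5.38 and 3.35, 6.89 and 5.25, 13.8 and 7.61, and 22.1 and 12.3 CPM, with DMSO above Ro in every pair. ACSS1, which reached 0.95 in pair 3 and is a mitochondrial acetyl-CoA synthetase, stood at 7.87 and 8.54, 18.2 and 17.6, 25.1 and 22.3, and 57.7 and 43.4 CPM. In ACSS1 as in SCD, pair 1 lay far below the other cultures and pair 4 far above.

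Among the gene lists, that of the ATF4 program of amino acid stress had the largest median difference in pair 4. Of 24 tested genes in the list, 19 had both pair 4 libraries above the other 6 (background 26.8%) and 0 below (background 24.3%). The median of the list was 1.63 in pair 4 against pairs 1 to 3, 0.22 in pair 3 against pairs 1 and 2, and 0.39 in pair 2 against pair 1. Over all tested genes these medians were -0.07, -0.00 and -0.01. The median span of the list was 25.8 kb, against 38.9 kb over all tested genes. Of protein-coding genes of 10 to 30 kb, 40.5% had pair 4 above the other 6. The part of gene span in this list was not tested. The Ro libraries of pairs 3 and 4, 1 library each, had nearly equal total counts. Between them the list median was 1.24, with 16 of 24 genes at least 1 higher in pair 4 and 0 at least 1 lower. The part of depth was not tested.

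TRIB3, a pseudokinase that restrains the response, is a target of ATF4 on chromosome 20 (GRCh38.p14, 380760 to 397559). It stood at 7.47 and 8.22 CPM in pair 1, 13.2 and 13.7 in pair 2, 14.9 and 14.3 in pair 3, and 139 and 96.1 in pair 4. TRIB3 libraries of pairs 3 and 4 averaged 66.2 CPM ± 62.1 (SD, n = 4), against 10.6 ± 3.24 (SD, n = 4) in pairs 1 and 2, a difference of 2.60 on the log2 scale (SE 0.71), and the spread on the higher side came from the gap between pairs 3 and 4. The ATF4 mRNA itself stood at 198 and 247, 293 and 350, 346 and 345, and 1049 and 851 CPM. Pair 3 was within the range of pair 2 for ATF4, and pair 4 was 1.71 higher on the log2 scale than pairs 1 to 3. CHAC1, which degrades glutathione, had the largest difference of the genes named by rule for pair 4, with 1.05 and 2.07, 2.55 and 3.20, 2.03 and 4.05, and 35.3 and 19.8 CPM (3.50 on the log2 scale, SE 0.20).

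Enzymes of amino acid synthesis were high in pair 4 in the same way. ASNS, asparagine synthetase, stood at 91.4 and 95.9, 62.2 and 82.8, 97.5 and 95.7, and 409.5 and 333 CPM. PSAT1, of serine synthesis, stood at 53.1 and 49.2, 72.4 and 78.6, 77.3 and 68.4, and 245 and 247 CPM. Pair 3 was within the range of pairs 1 and 2 for PSAT1 and just above it in the DMSO library for ASNS. CTH and CBS, which pass sulfur from homocysteine to cysteine, were at most 4.28 and 19.5 CPM in the first 3 pairs, against 30.4 and 26.4 CPM (CTH) and 75.4 and 72.6 CPM (CBS) in pair 4. GPT2, the mitochondrial alanine transaminase, stood at 37.9 and 34.1, 73.7 and 93.6, 74.3 and 76.0, and 306 and 254 CPM. SHMT2, which makes glycine from serine in mitochondria, was 1 of 4 list members without overlap between the groups, with 96.2 and 87.6, 131 and 114, 159 and 153, and 386 and 324 CPM.

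Amino acid carriers followed. SLC7A5, the large neutral amino acid carrier, stood at 234 and 228, 410 and 439.8, 421 and 464, and 1289 and 1057 CPM. SLC43A1, another carrier of large neutral amino acids, stood at 28.1 and 18.0, 28.7 and 27.7, 36.5 and 31.1, and 177 and 130 CPM. SLC38A2, a sodium-coupled carrier of small neutral amino acids, stood at 26.6 and 27.3, 32.9 and 34.5, 39.9 and 37.4, and 135 and 106 CPM. In all of these carriers both pair 4 libraries were above every other library, although SLC7A5 also differed between pairs 1 and 2. DDIT4 and SESN2, which hold back mTORC1 under stress, were also high: DDIT4 stood at 76.2 and 44.7, 97.5 and 97.4, 136 and 106, and 856 and 569 CPM, and SESN2 at 21.9 and 26.8, 34.6 and 52.0, 34.3 and 48.2, and 202 and 125 CPM. Not every member of the list was high. DDIT3 (CHOP), which drives death under lasting stress, stayed between 1.62 and 3.75 CPM in all 8 libraries, and SLC7A11, the cystine carrier, was 7.25 and 9.43 CPM in pair 4, inside the range of the others. The list of the endoplasmic reticulum's unfolded protein response had a median of 0.13 in pair 4 against pairs 1 to 3, with 7 of 18 genes above the other libraries (background 26.8%) and 1 below (background 24.3%). Aminoacyl-tRNA synthetases, the enzymes that charge tRNAs, were above the other 6 libraries in pair 4 for 18 of 20 genes (background 26.8%), with a median of 0.75, and had a median of 0.05 in pair 3.

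Promoters in the RefSeq table of GRCh38.p14 (250 bases before to 50 after the start of a gene) were searched on both strands. The search was for the C/EBP-ATF composite element, TGATGNAA or its reverse complement TTNCATCA. It was present in 5 of 18 promoters of the list (27.8%), in 417 of 12038 promoters of tested genes (3.46%) and in 1217 of 27305 promoters in the table (4.46%). The list was drawn up as genes of the ATF4 program, so its higher share follows from that choice and says nothing about pair 4. The 5 matches are shown in windows of 30 bases, 5′ to 3′ on the strand of the gene, with the element in capitals, as the stretch of sequence that these members of the list have in common:
ASNS, chr7:97872458-97872487, minus strand: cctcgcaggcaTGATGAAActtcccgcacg
CHAC1, chr15:40953251-40953280, plus strand: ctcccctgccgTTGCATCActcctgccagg
JDP2, chr14:75427995-75428024, plus strand: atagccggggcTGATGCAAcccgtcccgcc
SLC3A2, chr11:62881719-62881748, plus strand: gtaatgtgcaggactccTTACATCAgctcc
ATF3, chr1:212565205-212565234, plus strand: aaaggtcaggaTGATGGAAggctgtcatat
The element began 68 bases before the start of ASNS, 209 before that of CHAC1, 16 before that of JDP2 and 191 before that of ATF3, and inside the transcribed part of SLC3A2. In pair 4 these 5 genes stood 2.10 (ASNS), 3.50 (CHAC1), 1.82 (JDP2), 1.14 (SLC3A2) and 0.64 (ATF3) above pairs 1 to 3 on the log2 scale. A match is a description of letters and not a site of binding, and its absence from the window of another member says nothing about the factor.

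**Figure D2:**
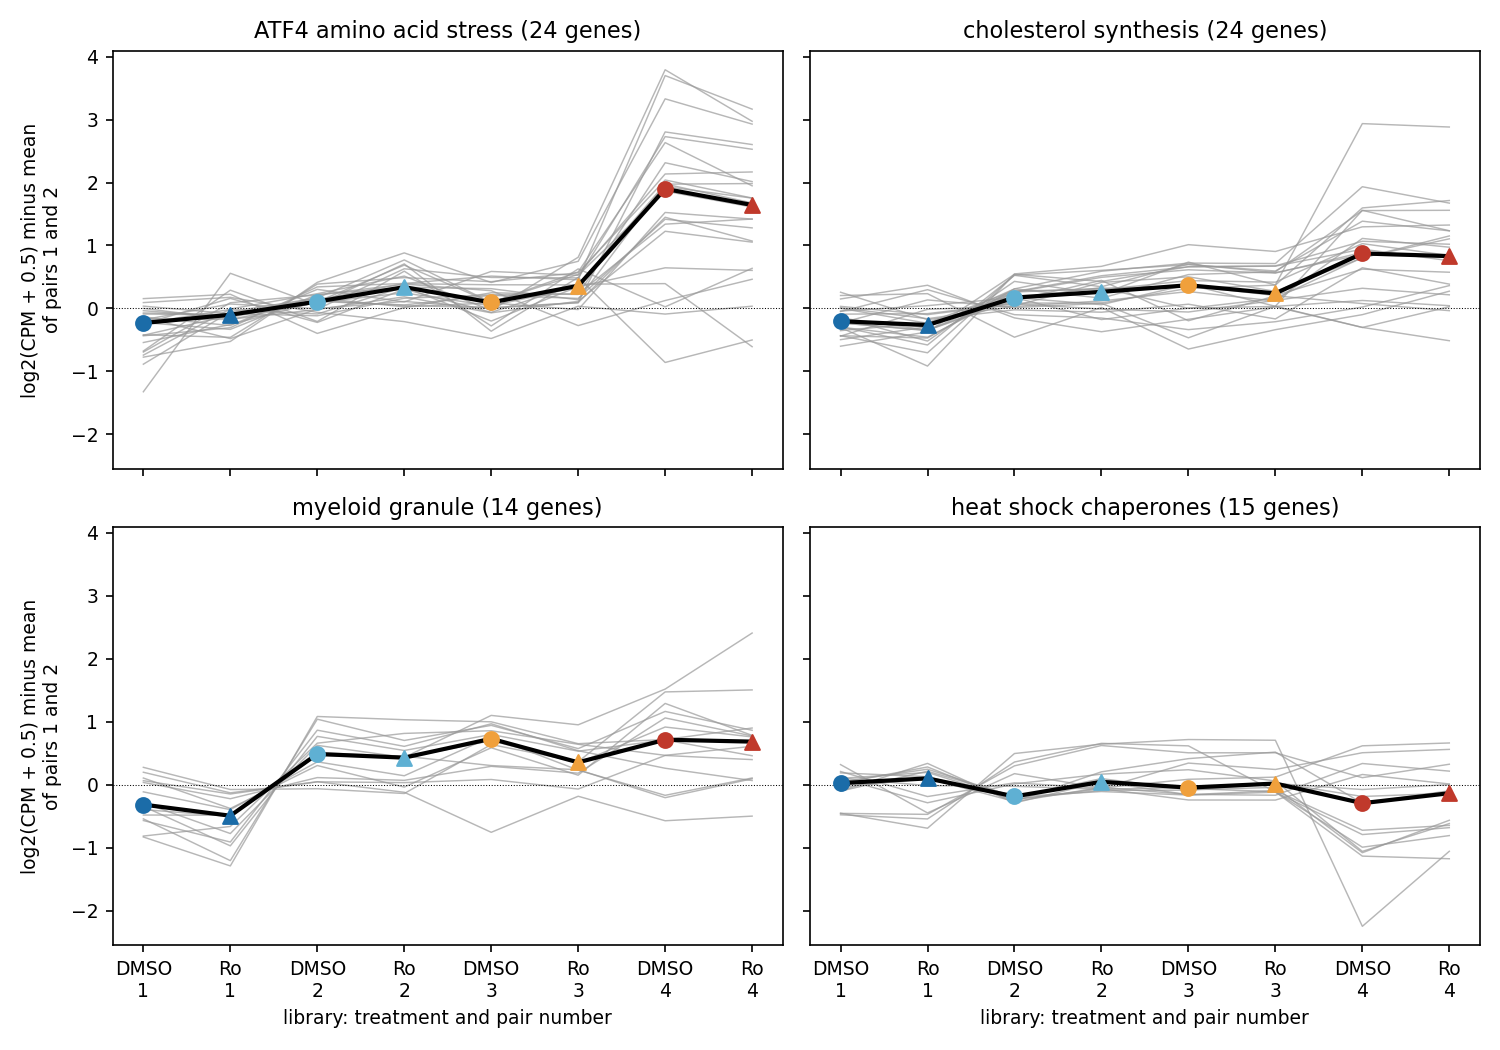
Each grey line follows 1 gene of a list across the 8 MOLM13 libraries as log2(CPM + 0.5) minus that gene's mean in pairs 1 and 2, and the black line with symbols is the median of the list (circles DMSO, triangles Ro; lines join libraries of no order). ATF4 genes stand apart in pair 4 (median 1.63 above pairs 1 to 3), granule genes are low in pair 1, and 8 of 15 chaperones fall below all other libraries in pair 4.

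Cholesterol synthesis as a list was highest in pair 4 and was also lower in pair 1 than in pair 2. Of 24 tested genes, 9 were higher in pairs 3 and 4 than in pairs 1 and 2 without overlap (background 7.03%) and 0 lower (background 7.82%), and 18 had pair 4 above the other 6 (background 26.8%). The median of the list was 0.78 in pair 4 against pairs 1 to 3, 0.32 in pair 3 against pairs 1 and 2 and 0.53 in pair 2 against pair 1. HMGCS1, the synthase at the entry of the pathway, stood at 26.6 and 25.9 CPM in pair 1, 44.9 and 54.7 in pair 2, 59.8 and 59.5 in pair 3, and 139 and 116 in pair 4. FDFT1, squalene synthase, stood at 52.3 and 48.0, 73.5 and 66.4, 86.2 and 88.9, and 175 and 175 CPM. MVK, mevalonate kinase, was nearly level in the first 3 pairs, with 12.9 and 12.9, 14.6 and 14.6, 17.2 and 17.9, and then 42.5 and 46.1 CPM in pair 4. INSIG1, a sterol-regulated brake on SREBP, was the member with the largest difference in pair 4, at 13.0 and 9.89, 19.5 and 16.9, 24.3 and 18.8, and 113 and 109 CPM. SREBF2, which encodes SREBP2, stood at 54.1 and 59.1, 84.2 and 85.2, 94.3 and 92.7, and 142 and 124 CPM, without overlap between the groups.

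Granule genes of the myeloid lineage were low in pair 1. The median of 14 tested genes was 0.94 in pair 2 against pair 1, 0.53 in pair 3 against pairs 1 and 2, and 0.52 in pair 4 against pairs 1 to 3, and 3 genes were higher in pairs 3 and 4 without overlap (background 7.03%) and 1 lower (background 7.82%). Pair 4 was above the other 6 libraries for 6 of the 14 (background 26.8%) and below them for 0 (background 24.3%). MPO, myeloperoxidase, stood at 8.26 and 5.74, 16.0 and 13.9, 22.4 and 20.2, and 30.1 and 56.3 CPM. CTSG, cathepsin G, stood at 289 and 226.5, 228 and 217, 372 and 308, and 664 and 679 CPM, and did not share the low level of MPO in pair 1. SRGN, the granule proteoglycan serglycin, was highest in pairs 2 and 3, at 364 and 287, 984 and 823, 1056 and 785, and 647 and 565 CPM. The granule genes thus did not keep to 1 order of the pairs. In bulk RNA, more cells of a granule-bearing state and more RNA per cell cannot be told apart.

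Several lists of growth genes were higher in pair 4, with medians in pair 3 of 0.14 or less. Over all tested genes, 26.8% had pair 4 above the other 6 libraries. DNA replication genes had it above for 26 of 38 (median 0.55, against 0.01 in pair 3), mitosis and spindle genes for 24 of 42 (0.43, against -0.01), and nucleolar ribosome biogenesis genes for 17 of 27 (0.40, against 0.02). Nuclear-coded subunits of the respiratory chain were above for 53 of 63 (0.40, against 0.05) and mitochondrial ribosomal proteins for 44 of 62 (0.45, against 0.14), of which 15 were higher in pairs 3 and 4 without overlap (background 7.03%) and 2 lower (background 7.82%). Cytosolic ribosomal proteins were not higher with them. Their median was 0.02 in pair 4, which was -0.09 with upper-quartile scaling, with 6 of 68 above the other libraries and 3 below (background 24.3%). Replication-dependent histones were not higher either, with a median of 0.12 in pair 4, 4 of 42 above and 3 below. Of the 12 HLA class I and peptide loading genes, 9 were above in pair 4 (0.53, against 0.01 in pair 3). The median spans of the mitochondrial lists were short, 10.6 and 11.0 kb against 38.9 kb over all tested genes, and short genes as a class were higher in pair 4, as given further on. The part of gene span in these lists was not tested.

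**Figure D3:**
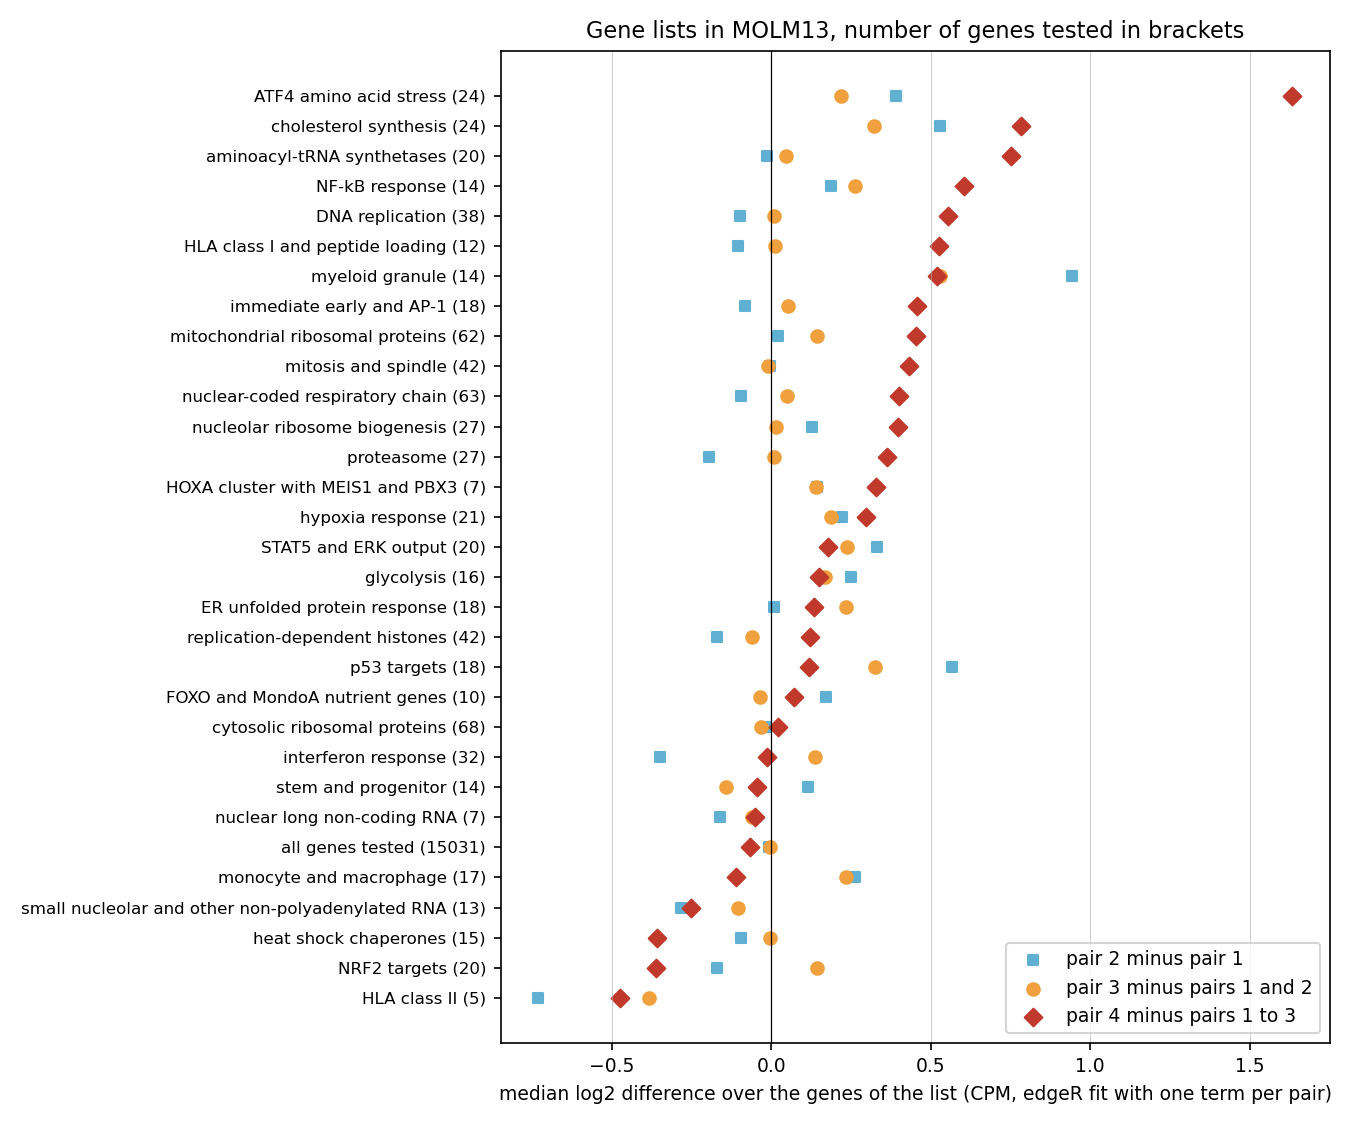
Median log2 difference over the tested genes of each list (horizontal axis, number of genes in brackets) for pair 2 minus pair 1 (squares), pair 3 minus pairs 1 and 2 (circles) and pair 4 minus pairs 1 to 3 (diamonds). The ATF4 list lies at 1.63 in pair 4 and 0.22 in pair 3, the granule list lies highest for pair 2 minus pair 1 (0.94), and the heat shock and NRF2 lists lie at -0.36 in pair 4.

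Chaperone genes were low in pair 4. Of 15 chaperone genes, 8 had pair 4 below the other 6 libraries (background 24.3%) and 2 above, and the median was -0.36. HSPA8, the constitutive HSP70, stood at 425 and 324, 399 and 444.5, 467 and 413, and 190 and 258 CPM. HSPA1B, an inducible HSP70 whose reads can be shared with its near-identical copy HSPA1A, stood at 28.3 and 23.9, 55.1 and 61.2, 64.4 and 63.9, and 7.80 and 18.5 CPM. HSP90AB1 and HSPB1, a small chaperone, were not low with them. HSPB1 stood at 109 and 82.9, 96.5 and 90.9, 120.0 and 112, and 135 and 139.6 CPM, without overlap between the groups. The NRF2 list had a median of -0.36 in pair 4, with 6 of 20 genes below the other 6 libraries (background 24.3%) and 1 above (background 26.8%), so the share below was near that of all genes. HMOX1, heme oxygenase, was named after its values were seen. It stood at 8.65 and 276 CPM in pair 1, 45.4 and 170 in pair 2, 56.2 and 263 in pair 3, and 2.30 and 5.48 in pair 4. Both HMOX1 values of pair 4, with Ro included, were below the lowest DMSO value of the other pairs, a difference of -4.83 on the log2 scale (SE 0.41). GCLM, which supports glutathione synthesis, stood at 50.9 and 115, 54.8 and 78.1, 55.8 and 96.2, and 23.1 and 40.6 CPM.

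The genes named by rule as lowest in pair 4, with pair 3 near pairs 1 and 2, came next. NRP1, a receptor for semaphorins and VEGF, stood at 9.97 and 10.3 CPM in pair 4, against 38.4 CPM or more in every other library. KSR1, a scaffold of the RAF-MEK-ERK cascade, stood at 26.4 and 30.1, 36.8 and 36.8, 19.5 and 28.7, and 5.22 and 6.36 CPM. CD86, a costimulatory ligand of antigen-presenting cells, stood at 4.59 and 8.78, 9.87 and 11.5, 7.05 and 8.34, and 1.57 and 1.89 CPM. For these genes pair 4 was lower than every other library and pair 3 lay within or just below the range of pairs 1 and 2. PRLR, the prolactin receptor, was at -2.14 in pair 4 on the log2 scale (SE 0.17), and APOL4, an apolipoprotein L, was -2.66 (SE 0.18), with pair 1 also low at 5.90 and 4.71 CPM against 11.7 to 16.7 CPM in pairs 2 and 3. The long non-coding RNAs MSC-AS1, LINC01435 and CKMT2-AS1 were at -2.30, -2.03 and -2.18. In the upward direction pair 4 also held EGR1, an immediate early transcription factor, at 26.3 and 9.95 CPM against 1.81 to 5.24 CPM elsewhere, ART3 at 29.3 and 16.8 CPM against 2.47 to 4.03, and KCNG1, a potassium channel subunit, at 19.7 and 15.1 CPM against 2.63 to 5.21.

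Several of the named genes that were lower in pairs 3 and 4 without overlap are long. AFF3, a nuclear factor of the AF4 family with a span of 597172 bases, stood at 267 and 312, 286 and 213, 158 and 175, and 47.9 and 68.6 CPM. NCALD, a neuronal calcium sensor (438366 bases), stood at 90.3 and 121, 119.9 and 85.8, 65.6 and 79.3, and 18.8 and 23.9 CPM. CHN2, a Rac GTPase-activating protein (367738 bases), stood at 21.0 and 28.2, 20.1 and 18.4, 12.8 and 13.7, and 6.40 and 6.62 CPM. In all of these pair 3 lay below pairs 1 and 2 and pair 4 lay far below pair 3. TOX, an HMG-box factor, PDE7A, a cAMP phosphodiesterase, HS2ST1, a heparan sulfate sulfotransferase, LRRC49 and LHFP were also lower without overlap, at -1.16, -1.15, -1.10, -1.13 and -1.28 between the groups. CIITA, the master activator of HLA class II, was the single list member at least 1 lower without overlap, at 2.49 and 2.79, 2.12 and 1.09, 1.00 and 0.82, and 0.75 and 0.83 CPM, low levels throughout.

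Across all protein-coding genes the difference between cultures moved with the span of the gene. Genes spanning under 10 kb had a median of 0.41 in pair 4 against pairs 1 to 3 (2043 genes), those of 10 to 30 kb 0.23 (3621), those of 30 to 100 kb -0.08 (4667), and those of 100 kb or more -0.38 (3184). Both pair 4 libraries were below the other 6 for 50.6% of the longest genes and 5.97% of the shortest, and above them for 8.45% and 48.7%. The same order held in pair 3 against pairs 1 and 2, with medians of 0.18, 0.07, -0.04 and -0.11, and in pair 2 against pair 1, with 0.10, 0.05, -0.03 and -0.08. Ro against DMSO ran the other way, from -0.11 to 0.05. Spearman's rho with span over 13515 genes was -0.443 for pair 4, -0.350 for pair 3, -0.189 for pair 2 against pair 1 and 0.252 for Ro. The order was also present when genes were divided into 3 equal classes by base composition at the 3′ end: in the low, middle and high GC classes the median in pair 4 was 0.21, 0.24 and 0.37 for spans under 30 kb and -0.38, -0.38 and -0.365 for spans of 100 kb or more. Long non-coding RNAs had a median of -0.33 in pair 4 over 1341 genes. Of these, 389 were below the other libraries (background 24.3%) and 122 above (background 26.8%). The share below was thus near that of all genes, and the share above was smaller. Between the Ro libraries, pair 4 minus pair 3 was 0.30 for the shortest and -0.31 for the longest genes.

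**Figure D4:**
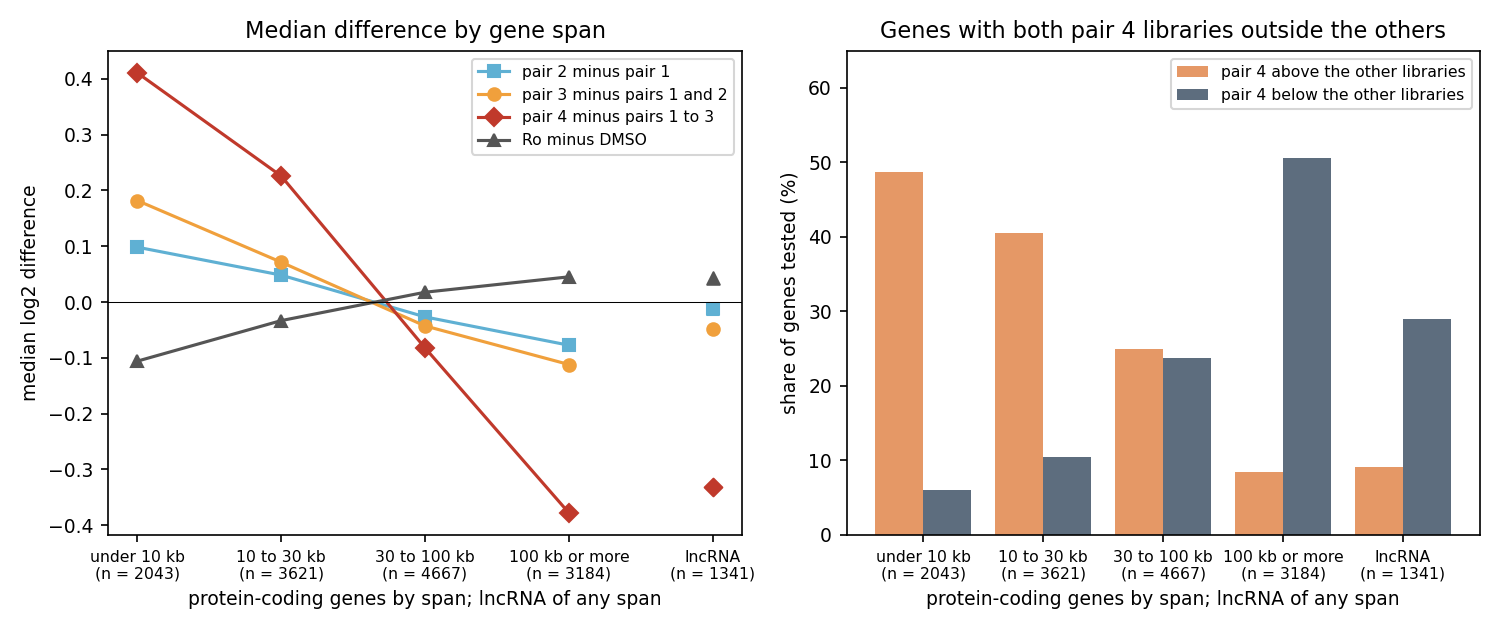
Left, median log2 difference by gene span for 3 contrasts of pairs and for Ro minus DMSO; right, share of genes (%) with both pair 4 libraries above (orange) or below (grey) the other 6, for protein-coding genes in 4 span classes and long non-coding RNAs. The pair 4 median goes from 0.41 under 10 kb to -0.38 at 100 kb or more, and Ro minus DMSO slopes the other way.

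The composition of the libraries moved with the same order of pairs. Counts listed under LOC100507412 and UNC45B were a large share of every library, and whether they are transcripts of these genes or reads placed there by the counting was not settled. LOC100507412, an uncharacterized gene, took 22.3% and 24.3% of counts in pair 1, 14.6% and 15.3% in pair 2, 12.0% and 9.16% in pair 3, and 4.11% and 6.29% in pair 4. UNC45B, a myosin chaperone of muscle, took 6.41% and 7.24%, 4.02% and 4.28%, 3.25% and 2.36%, and 0.957% and 1.65%. The value listed for UNC45B differed by -1.62 (SE 0.36) between the groups, the lowest value among the genes named for pairs 3 and 4. Both features together held 28.7% and 31.6% of counts in pair 1 and 5.07% and 7.94% in pair 4. Of the counts that remained, genes of 100 kb or more held 20.2% and 21.5% in pair 1, 20.5% and 19.7% in pair 2, 18.5% and 19.8% in pair 3, and 15.1% and 15.9% in pair 4. Long non-coding RNAs held 3.32% and 3.85% of the remainder in pair 1 and 2.07% and 2.26% in pair 4. The share of these features was lowest in pair 4, where the ATF4, chaperone and span differences above were largest. It fell over pairs 1 to 3 as well. In pair 2 against pair 1 and in pair 3 against pairs 1 and 2, the chaperone median was -0.09 and -0.005. The ATF4 median was 0.39 and 0.22 in these contrasts. It was 0.10 and 0.18 for protein-coding genes under 10 kb, and -0.08 and -0.11 for those of 100 kb or more. The part of these features in those differences was not tested.

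The change with Ro was next compared between the groups of pairs, a contrast that the grouping did not use. The interaction of Ro with pairs 3 and 4 was past the adjusted threshold for 0 of 15031 genes (0.0%) in edgeR, with 69 (0.459%) under an unadjusted 0.05, and for 0 in DESeq2 and in limma-voom. With a term for each pair it was again 0 (0.0%), with 727 genes (4.84%) under an unadjusted 0.05. Asked instead of pair 4 against pairs 1 to 3, edgeR called 0 without the pair terms and 29 with them (0.193%; 1063 genes, 7.07%, unadjusted), 14 with a higher Ro effect in pair 4 (0.0931%) and 15 with a lower one (0.0998%). That last comparison was added after the data were seen and rests on a single DMSO and Ro library of pair 4, which differed in depth, so it compares those libraries with the rest.

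Among the 29 genes, 3 were ATF4 targets that had lower values with Ro in pair 4 and higher values with Ro in the other pairs. SESN2 changed with Ro by 0.29, 0.59 and 0.49 on the log2 scale in pairs 1 to 3 and by -0.69 in pair 4 (interaction -1.17, SE 0.16, edgeR adjusted p 0.000208). CHAC1 changed by 0.92, 0.32 and 0.96 and by -0.83 (interaction -1.54, SE 0.27, edgeR adjusted p 0.00547), and DDIT3 by 0.46, 0.60 and 0.50 and by -1.16 (edgeR adjusted p 0.0450). Over the whole ATF4 list the median change with Ro was 0.11, 0.24, 0.12 and -0.19 in pairs 1 to 4. HSPA1B changed by -0.24, 0.15 and -0.01 and by 1.23 in pair 4 (edgeR adjusted p 0.00114), and MPO by -0.52, -0.20 and -0.15 and by 0.90 (edgeR adjusted p 0.00255). The other direction also held SMN2, whose reads can be shared with its near-identical copy SMN1.

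The median of the NRF2 list was higher with Ro than with DMSO in every pair, by 0.69, 0.32, 0.30 and 0.18 in pairs 1 to 4. The Ro minus DMSO difference of HMOX1 was 4.98, 1.90, 2.23 and 1.22 on the log2 scale, and the interaction of pair 4 with Ro was -1.43 (SE 0.63), which did not pass (edgeR adjusted p 0.630). That of GCLM was 1.18, 0.51, 0.78 and 0.81, and that of SRXN1, which repairs peroxiredoxins, 1.06, 1.13, 0.94 and 0.77. SRXN1 stood at 53.05 and 90.5 CPM in pair 4, inside the range of the other pairs, so the low level of HMOX1 and GCLM there was not shared by every target.

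**Figure D5:**
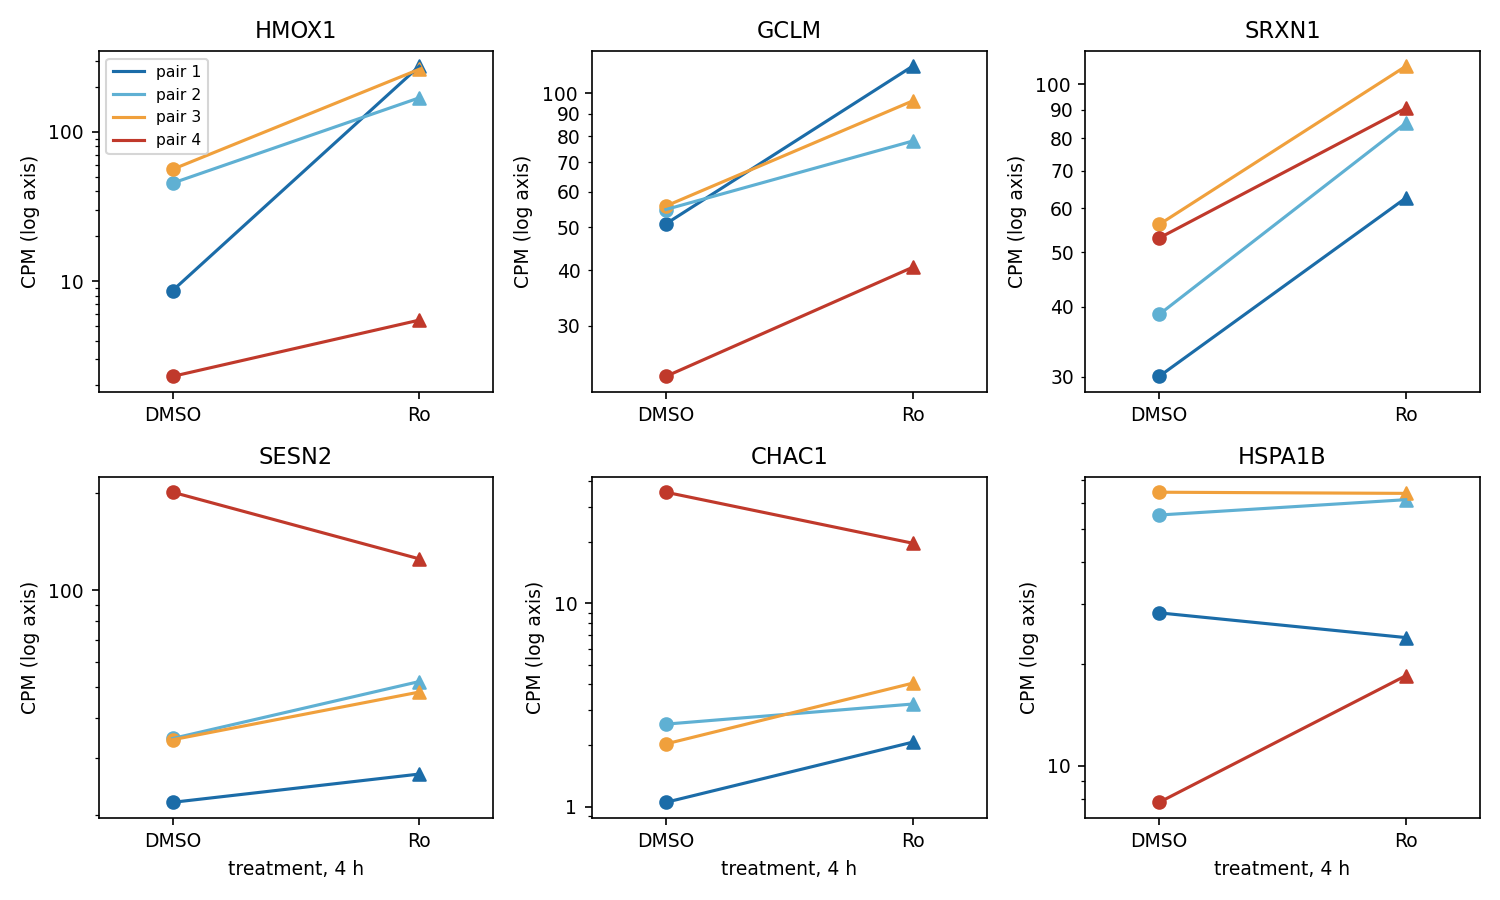
CPM (log axis, its own range in each panel) of 6 genes in DMSO and Ro libraries, each line joining the 2 libraries of a pair. HMOX1 starts at 2.30 CPM in pair 4 and at 8.65 to 56.2 CPM in the others, and SESN2 and CHAC1 fall with Ro in pair 4 and not in the other pairs.

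The same pair numbers were finally compared in K562, whose libraries the grouping did not use. Pairs 3 and 4 against pairs 1 and 2 gave 0 of 15227 genes (0.0%) in edgeR, with 1639 (10.8%) under an unadjusted 0.05 and a smallest adjusted p of 0.453; limma-voom called 0 and DESeq2 113. With DMSO, K562 pair 2 had 3143129 counts and pair 4 had 4383241, far below the others. Without pairs 2 and 4, pair 3 against pair 1 gave 3676 genes, where the spread is again that within a pair. Libraries of pairs 3 and 4 were above those of pairs 1 and 2 without overlap for 655 genes (4.30%) and below for 1028 (6.75%). Of the 1056 MOLM13 genes higher without overlap, 1024 were tested in K562, where 510 were positive and the median was -0.00. Of 1150 tested genes lower in MOLM13, 662 were positive in K562, with a median of 0.05, and over all 14320 genes tested in both lines 7885 were positive. The differences had a Pearson's r of -0.155 and a Spearman's rho of -0.202 between the lines across these genes. TRIB3 differed by -0.10 (SE 0.28) and DDIT4 by -0.26 (SE 0.43) in K562, and the medians of the ATF4 and cholesterol lists there were 0.12 and -0.10. The median over all genes tested in both lines was 0.04.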

How the data were processed

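RNA of 16 libraries (4 groups of 4) was read at 3′ ends. The authors deposited whole-number counts of reads per gene, not normalized, by Entrez identifier; the submitters' processing notes name Trim Galore, STAR 2.5.3a, SAMtools 1.5 and hg38, and the counting program is not given in the sources used here. Reads of overlapping genes or near-identical copies are uncertain. Groups and pairs came from the titles, and 0 columns lacked a sample. Symbols, spans and promoters came from RefSeq (15003 of 15031 tested genes matched).

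Per line, edgeR 4.0.16 in R 4.3.3 (TMM, quasi-likelihood, Benjamini-Hochberg) was run on genes that reached 10 counts in 4 or more of a line's 8 libraries. Interactions and K562 were tested; differences between MOLM13 pairs are descriptions. Log2 values by pair used a prior count of 2, and single libraries a pseudocount of 0.5 CPM. The titles number the samples as pairs. After subtracting group means, libraries that share a number correlated at 0.624, 0.441, 0.386 and 0.831 in MOLM13. In K562 these values were 0.349, 0.109, 0.4155 and 0.244. Correlations between unlike numbers are not given, so these values do not test the pairing. Every 2 libraries of a group differed by more than sampling noise (the lowest chi-square divided by its degrees of freedom was 17.7). DESeq2 1.42.0, limma-voom 3.58.1, other scalings and filters, and leaving out libraries or pairs were alternatives, and the fits were tested on simulated counts. Tables used Python 3.11.15, pandas 2.3.3 and scipy 1.17.1.

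The members, the 37 gene lists and the naming rule were chosen with earlier results of these data known. Genes were named by size of difference: 12 per direction without overlap between pairs 3-4 and 1-2, 8 per direction for pair 4 with pair 3 within 0.5, and list members without overlap that differed by at least 1, with a mean of at least 5 CPM for the first 2 kinds. Other genes named, such as list members, VIM, HMOX1 and the genes of the Ro interaction, were chosen after their values were seen. The list of mitochondrially encoded genes had no gene in the table.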

Additional observations from a re-analysis of the deposited data

Results flagged for a closer look

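Dixon's ratio of gap to range was computed for 146 groups of 4 libraries. The groups covered 65 genes named in the text, and the total counts and composition shares of the libraries, each by treatment. In 38 groups, 1 library had a gap to its nearest neighbour beyond the 95% limit, which chance gives in about 1 of 20 groups. In 37 of these the library was that of pair 4. Pair 4 was chosen for its differences, so the number of such groups is no test. Genes highest in pair 4 in both treatments, DMSO then Ro, were TRIB3 at 139 and 96.1 CPM, DDIT4 at 856 and 569 CPM, ART3 at 29.3 and 16.8 CPM, SLC43A1 at 177 and 129.95 CPM, and CBS at 75.4 and 72.6 CPM. The same held for SLC38A2 at 135 and 106 CPM, DUS4L at 28.3 and 22.01 CPM, CHAC1 at 35.3 and 19.8 CPM, CTH at 30.4 and 26.4 CPM, and KCNG1 at 19.7 and 15.1 CPM. It also held for MVK at 42.5 and 46.1 CPM, INSIG1 at 113 and 109 CPM, ASNS at 409.5 and 333 CPM, PSAT1 at 245 and 247 CPM, CEBPB at 52.02 and 45.2 CPM, and STC2 at 64.4 and 48.6 CPM. With DMSO alone pair 4 stood out for EGR1 at 26.3 CPM, SESN2 at 202 CPM, GPT2 at 306 CPM and, as the lowest library, GCLM at 23.1 CPM. With Ro alone it stood out for ATF4 at 851 CPM. The exception was CIITA, whose Ro library of pair 1 was highest at 2.79 CPM.

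The change with Ro differed between pair 4 and pairs 1 to 3 for 29 genes by edgeR's interaction term with a term for each pair, and for 0 genes without those terms. The 29 rest on the single DMSO and Ro libraries of pair 4.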

How the results depend on the processing

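For MOLM13 pairs 3 and 4 against pairs 1 and 2, where edgeR called 0 genes, DESeq2 called 1495, the replicate block 7261, counts summed over each pair 0, the Ro libraries alone 2 and the libraries without pair 3 6270, and leaving out 1 library gave 0 to 2484, the latter without the Ro library of pair 3. Without pair 4 it was 0, with 1460 under an unadjusted 0.05. For pair 4 against pairs 1 to 3 (8892 genes), the DMSO libraries alone gave 2856, the Ro libraries alone 1534, leaving out 1 library 6642 to 8856, and the fit with no replicate block 6430. Upper-quartile scaling turned the split from 4609 higher and 4283 lower into 3803 and 5479, and moved the median of all genes from -0.07 to -0.18. For pairs 3 and 4 against 1 and 2, total counts moved that median from -0.03 to 0.129. The Ro effect in pairs 3 and 4 against 1 and 2 gave 0 under every alternative, the replicate block and left-out libraries included, except that pair 4 against pairs 1 to 3 with the replicate block, chosen after seeing the data, gave 29. K562 gave 0 with the replicate block and with any library left out, 113 with DESeq2 and 3676 without pairs 2 and 4, chosen after seeing the data. Of 2236 values of genes and lists under alternatives, 2163 moved by less than the replicate spread, 67 moved further and 6 reversed. The reversed medians were heat shock between the pair groups with total counts (0.0854), mitosis without pair 4 (-0.0029), metallothioneins without pair 3 (-0.2245) and, over left-out libraries, from -0.0343 to 0.3049, cytosolic ribosomal proteins in pair 4 with upper-quartile scaling (-0.0925), and the STAT5 and ERK list in pair 4 without pair 1 (-0.0063). The cause was not tested. Each culture number gave 2 libraries, so 2 pairs stood on either side, and separate libraries of a pair measure library spread rather than spread between cultures.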

Other observations

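Over all tested genes, pair 4 was above the other 6 libraries for 26.8% and below them for 24.3%. The NF-kB list had 8 of 14 genes above and 1 below, and a median of 0.61. Its median for pair 4 minus pair 3 was 0.65 between the DMSO libraries and 0.09 between the Ro libraries. With DMSO 3 of the 14 were at least 1 higher in pair 4 and 0 lower, and with Ro 0 were higher and 1 lower. RELB, a subunit of the non-canonical NF-kB dimer, stood at 13.5 and 18.4, 17.0 and 22.5, 25.5 and 28.8, and 56.9 and 47.3 CPM in pairs 1 to 4, without overlap between the pair groups. The interferon list had a median of -0.01 in pair 4, with 8 of 32 genes above and 9 below, shares near those of all genes, and a median of -0.35 in pair 2 against pair 1. The p53 list had a median of 0.57 in pair 2 against pair 1, 0.32 in pair 3 against pairs 1 and 2 and 0.12 in pair 4 against pairs 1 to 3. The proteasome list had 17 of 27 genes above the other libraries in pair 4 and 0 below, with a median of 0.36.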
